A study of Mus musculus with 8 samples.

Results

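Cytochrome P450 genes of families Cyp2, Cyp3 and Cyp4 were examined in liver macrophages of mice on a western diet. The genes were all rows of the authors' deposited table whose symbol begins with Cyp2, Cyp3 or Cyp4 followed by a letter, which gave 13 of 2386 listed genes. The libraries came from liver macrophages of mice of the inbred strain C57BL/6, with 4 libraries on a western diet (WD) and 4 on a normal diet (ND), and the series design has 4 mice in each group. The composition and length of the diets, the age and sex of the animals and the isolation of the macrophages are not stated in the labels. The table names its groups WDV and NDV without explaining the V, and these names were read as WD and ND. It holds 1 mean, 1 fold change and 1 error per gene for the whole comparison. Values of single libraries were not analysed here, so every error is the authors' standard error (SE) or is computed from it, and the depth of each library is unknown.

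P450 enzymes are heme proteins of the endoplasmic reticulum that insert an oxygen atom from molecular oxygen into fats, steroids, retinoids, drugs and toxins, using electrons passed on by P450 reductase. In liver most of this work is done by hepatocytes. The Cyp3a enzymes oxidise drugs and steroids and are induced through the receptors PXR and CAR. Cyp2c and Cyp2j enzymes make epoxides of arachidonic acid. Cyp4a enzymes hydroxylate the far end of fatty acids, and several of their genes are classic targets of the fatty acid receptor PPARα.

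Of the 13 genes, 8 were higher and 5 were lower in WD macrophages. The higher genes were Cyp3a11, Cyp3a25, Cyp4a10, Cyp4a12a, Cyp4a14, Cyp2c37, Cyp2c50 and Cyp2e1, and the lower genes were Cyp4b1, Cyp2d22, Cyp2j6, Cyp2j9 and Cyp4a32. All 13 were chosen by measured values of this same comparison, an unadjusted p below 0.05 and a more than 2-fold change, so their fold changes are a description and are not tested again. With an adjusted p below 0.05 as the limit, 6 of the 8 higher genes and all 5 lower genes were called in the authors' deposited table. The authors gave 17531 genes an adjusted p, a number recovered from the adjusted p-values, and these are called the genes tested here. Of them, 3.0% were called higher, 8.35% were called lower and 11.4% were called in either direction with a change of more than 2-fold. Nothing is read from the members' count against these shares, because the comparison itself chose the members. The median log2 fold change was 2.65 over the 8 higher genes and -2.96 over the 5 lower genes, beside 1.38 and -2.08 over all listed genes of the same direction. The median mean count was 5.94 over the 8 higher genes and 70.6 over the 5 lower genes, beside 37.5 over all listed genes. At low counts the SE is large, so the limit on p lists only large fold changes there. Nothing is read from these medians against each other. The 13 are part of 78 protein-coding genes of these families in the GENCODE M21 annotation of GRCm38 (mm10). By family they were 6 of 49 Cyp2 genes, 2 of 9 Cyp3 genes and 5 of 20 Cyp4 genes. No member of the Cyp2a, Cyp2b or Cyp4f subfamilies, with 4, 5 and 9 coding genes, was listed. Genes that are not listed have no value here.

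**Figure D1:**
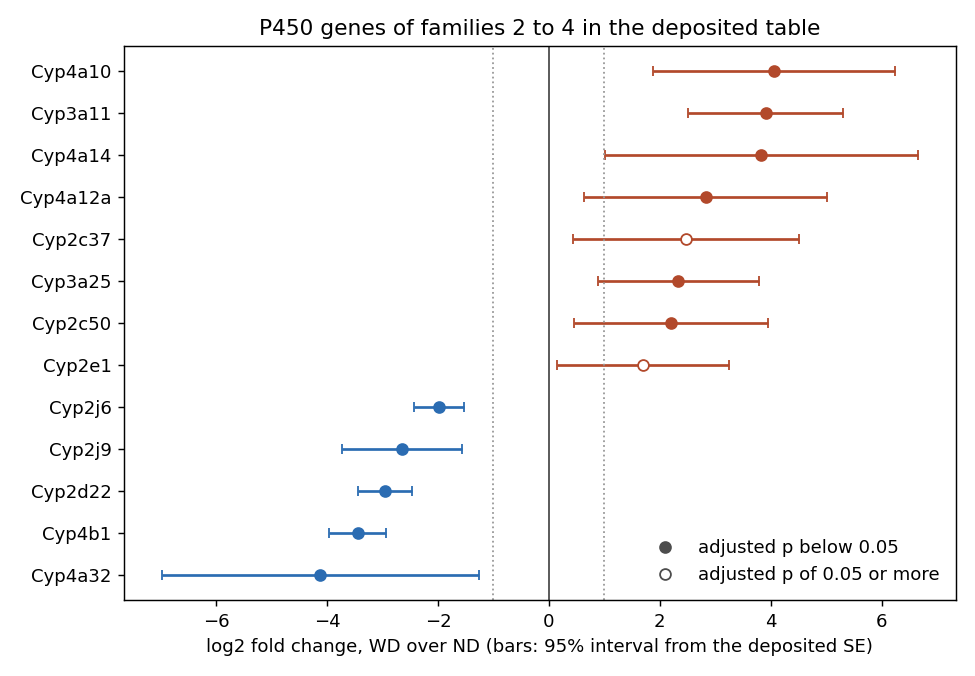
Log2 fold change of WD over ND (horizontal axis) for the 13 P450 genes, with bars for the 95% interval computed from the deposited SE and dotted lines at 2-fold. The 8 higher genes have wide intervals, 3 of which lie wholly beyond 2-fold, whereas the intervals of all 5 lower genes do; open points are Cyp2c37 and Cyp2e1, with an adjusted p of 0.0575 and 0.0944.

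All but Cyp2e1 sit in clusters of related genes. Sequence just upstream of the transcription start is shown for 3 pairs, each of a single subfamily, with the same direction of change in both genes and a promoter at hand for both. Cyp4a32 and Cyp4b1, neighbours of different subfamilies that were both lower, are not shown. Of the 13 genes, 9 were matched by symbol in a RefSeq table of promoters (GRCm38.p6), and the bases printed lie before both the RefSeq and the GENCODE start. Coordinates count from 1, and each sequence runs 5′ to 3′ on the strand of its gene. In the Cyp3a pair, both higher, capitals mark the nuclear receptor motif AGGTCA on either strand.
Cyp3a11 (chr5:145879965-145880104, strand -): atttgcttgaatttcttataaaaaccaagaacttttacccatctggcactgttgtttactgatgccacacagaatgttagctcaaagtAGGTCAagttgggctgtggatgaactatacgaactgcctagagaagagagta
Cyp3a25 (chr5:146009619-146009868, strand -): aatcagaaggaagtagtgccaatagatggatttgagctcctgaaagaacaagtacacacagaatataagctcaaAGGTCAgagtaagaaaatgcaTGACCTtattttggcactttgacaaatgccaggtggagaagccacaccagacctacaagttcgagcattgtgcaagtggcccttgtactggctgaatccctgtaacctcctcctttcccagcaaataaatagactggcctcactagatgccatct

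AGGTCA occurred 162 bases before the RefSeq start of Cyp3a11 on the gene's own strand. In Cyp3a25 it occurred 176 bases before the start on the same strand and 155 bases before it on the opposite strand. Within 250 bases before the start, searched on both strands, 14.0% of the 32851 RefSeq promoters held this motif, and of the 9 matched P450 genes only these 2 Cyp3a genes did. Direct repeats of AGGTCA with 1 or 4 bases between the copies, which contain the single motif, were in none of the 9 windows and in 0.0335% and 0.0152% of all promoters. Over the 250 bases before the RefSeq start, the Cyp3a pair was identical at 52.7% of 277 aligned positions. These positions, here and for the other pairs, include gaps. A match or its absence describes these letters only.

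In the Cyp2c pair, both also higher, capitals mark the longest stretch that the pair shares without a difference.
Cyp2c37 (chr19:39992174-39992423, strand +): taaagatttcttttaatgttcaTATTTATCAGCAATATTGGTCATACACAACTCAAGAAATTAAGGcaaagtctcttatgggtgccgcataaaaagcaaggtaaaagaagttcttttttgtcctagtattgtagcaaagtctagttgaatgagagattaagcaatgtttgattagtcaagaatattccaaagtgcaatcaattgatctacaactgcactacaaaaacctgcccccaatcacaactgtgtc
Cyp2c50 (chr19:40089429-40089678, strand +): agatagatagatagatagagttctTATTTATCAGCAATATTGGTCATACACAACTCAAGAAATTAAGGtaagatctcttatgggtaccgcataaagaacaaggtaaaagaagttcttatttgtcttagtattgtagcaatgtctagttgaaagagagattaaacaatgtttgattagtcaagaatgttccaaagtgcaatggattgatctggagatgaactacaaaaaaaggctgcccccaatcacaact

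The Cyp2c windows were identical at 84.3% of 255 aligned positions and shared a run of 44 bases. That run occurred in 2 promoters of the RefSeq table, which are those of the pair it was taken from. The Cyp2j pair, both lower, is shown with its longest shared run in capitals for contrast.
Cyp2j6 (chr4:96553662-96553901, strand -): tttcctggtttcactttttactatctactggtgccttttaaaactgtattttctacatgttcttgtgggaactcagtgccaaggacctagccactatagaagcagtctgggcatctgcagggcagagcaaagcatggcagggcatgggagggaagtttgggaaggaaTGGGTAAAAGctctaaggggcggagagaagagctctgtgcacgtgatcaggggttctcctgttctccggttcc
Cyp2j9 (chr4:96591579-96591735, strand -): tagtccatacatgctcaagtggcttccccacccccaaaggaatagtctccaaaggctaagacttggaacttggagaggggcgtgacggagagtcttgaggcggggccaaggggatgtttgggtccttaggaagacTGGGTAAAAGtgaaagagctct

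The Cyp2j windows were identical at 44.7% of 300 aligned positions, and the longest run shared by the printed stretches was 10 bases. It occurred in 20 promoters of the table, the pair included. Over the 250 bases before the RefSeq start, the similarity was therefore high in the Cyp2c pair and low in the Cyp3a and Cyp2j pairs. Both Cyp2c windows lie wholly before both starts. In Cyp3a11, Cyp2j6 and Cyp2j9 only 140, 240 and 157 bases do, and the rest lie after the GENCODE start. Whether the pairs differ in sequence before both starts was not tested. Of the other motifs searched on both strands, TATAAA was in the windows of Cyp2e1, Cyp3a11 and Cyp4a32, and in 12.4% of all promoters. In Cyp2e1 it began 31 bases before the RefSeq start, a place downstream of the GENCODE start. The stretch ahead of both starts is shown for Cyp2e1 because it is the most abundant of the higher genes, with no letters in capitals. It holds 2 copies of CANNTG, which begin 230 and 120 bases before the RefSeq start.
Cyp2e1 (chr7:140763569-140763738, strand +): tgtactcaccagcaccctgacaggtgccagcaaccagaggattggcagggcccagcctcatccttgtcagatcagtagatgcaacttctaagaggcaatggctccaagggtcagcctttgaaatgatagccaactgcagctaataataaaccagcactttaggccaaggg

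The remaining motifs were searched in the same way. TTGCNNAA was in the windows of Cyp2c37, Cyp2j9 and Cyp3a25, against 9.56% of all promoters. CANNTG, the E-box, was in the windows of 8 of the 9 genes and in 66.2% of all promoters. GTTAAT and ATTAAC 1 base apart, the HNF1-type palindrome, was in none of the 9 windows and in 0.00913% of all promoters.

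Cyp3a11, the main drug-oxidising Cyp3a enzyme of mouse liver (ENSMUSG00000056035, chromosome 5, 145854426 to 145879964, mm10), was the higher gene with the smallest adjusted p. In the authors' deposited table it stood at 3.91 ± 0.71 (SE) on the log2 scale, with an adjusted p of 6.12e-07. This is 15.0-fold, with a 95% interval of 5.68-fold to 39.5-fold. Its mean normalized count over the 8 libraries was 23.9 in the authors' deposited table. With equal weight for each library, that mean and the fold change give 44.8 counts per library in WD and 2.99 in ND. Cyp3a25, a neighbouring liver Cyp3a gene 97.2 kb away (chromosome 5, 145977194 to 146009618), stood at 2.33 ± 0.74 (SE) in the authors' deposited table, with an adjusted p of 0.00818. The derived group means of Cyp3a25 were 14.3 counts per library in WD and 2.83 in ND. The other 6 coding genes of this Cyp3a cluster were not listed.

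The Cyp4a fatty acid hydroxylase genes had large fold changes on few reads. Cyp4a10, a PPARα target gene (ENSMUSG00000066072, chromosome 4, 115518264 to 115533649), had the largest rise of all 13 genes, at 4.06 ± 1.11 (SE) in the authors' deposited table with an adjusted p of 0.00168. By size it ranked 5 among the 706 listed genes that were higher. Its mean count was 4.80 in the authors' deposited table, or 38.4 normalized counts over all 8 libraries together. The derived sums over 4 libraries were 36.2 counts in WD and 2.17 in ND, so its fold rests on an ND level near zero. Cyp4a14, its neighbour and also a PPARα target (chromosome 4, 115486200 to 115496142), stood at 3.83 ± 1.44 (SE) in the authors' deposited table, with an adjusted p of 0.0300. Its derived sums were 19.3 counts in WD and 1.36 in ND, and the 95% interval of its fold ran from 2.0 to 100.2. Cyp4a12a, which makes the vasoactive lipid 20-hydroxyeicosatetraenoic acid in mouse (chromosome 4, 115299046 to 115332815), stood at 2.83 ± 1.12 (SE) with an adjusted p of 0.0408 in the authors' deposited table. Its derived sums were 27.1 counts in WD and 3.81 in ND. All 3 genes were therefore measured on few reads.

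The Cyp2c epoxygenase genes lay on either side of the limit. Cyp2c50 (chromosome 19, 40089688 to 40113950) stood at 2.19 ± 0.89 (SE) with an adjusted p of 0.0480 in the authors' deposited table, just inside. Cyp2c37 (chromosome 19, 39992424 to 40012243) stood at 2.47 ± 1.04 (SE) with an adjusted p of 0.0575 in the authors' deposited table, just outside. The difference in call comes with nearly equal fold changes, whose 95% intervals of 0.45 to 3.94 and 0.43 to 4.50 on the log2 scale overlap. Derived means were 11.6 counts per library in WD and 2.54 in ND for Cyp2c50, and 7.47 counts per library in WD and 1.35 in ND for Cyp2c37. The derived ND sums over 4 libraries were 10.2 counts for Cyp2c50 and 5.39 for Cyp2c37, so both were also measured on few reads. The other 12 coding genes of the Cyp2c cluster were not listed.

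Cyp2e1, the ethanol-oxidising P450 of hepatocytes around the central vein (ENSMUSG00000025479, chromosome 7, 140763739 to 140774987), had the highest count of the 8 higher genes and the weakest evidence. Its log2 fold change was 1.69 ± 0.79 (SE), with a p of 0.0323 and an adjusted p of 0.0944, in the authors' deposited table. Its mean count was 93.4 in the authors' deposited table, from which 142.5 counts per library in WD and 44.2 in ND were derived. Scaled to exon length, its mean was 43.3 normalized counts per kilobase. The other 7 higher genes had means of 0.993 to 4.69 normalized counts per kilobase. Of the 13 genes it had the largest p and the smallest absolute fold change, and so lay nearest to both limits of the table.

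**Figure D2:**
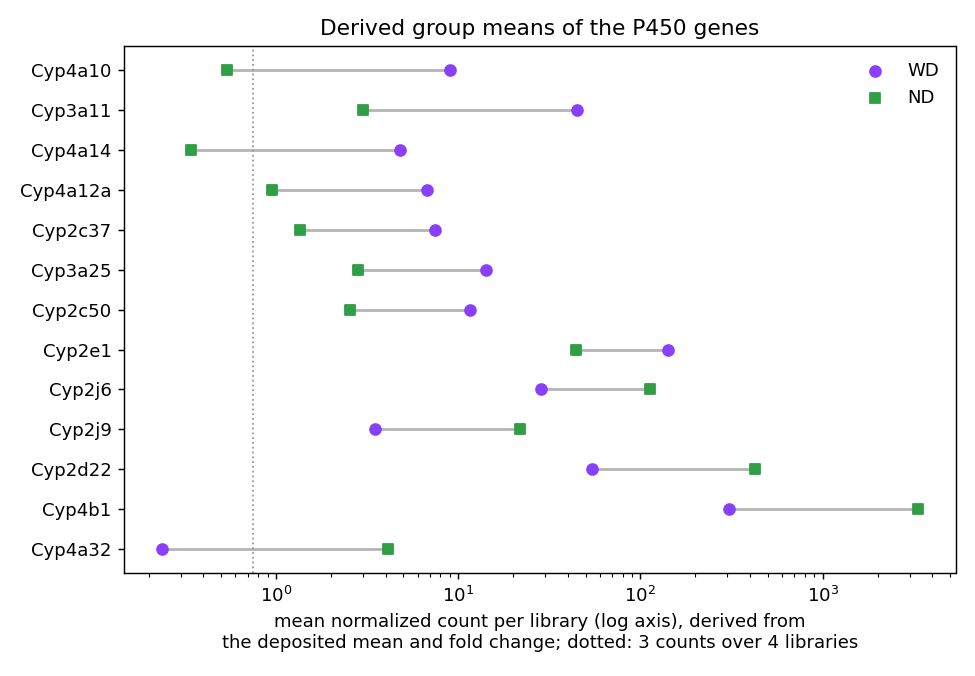
Mean normalized count per library (log axis) in WD (circles) and ND (squares) for each P450 gene, derived from the deposited mean over all libraries and the deposited fold change; the dotted line marks 3 counts over 4 libraries. Cyp4a10 and Cyp4a14 in ND and Cyp4a32 in WD fall left of that line, and Cyp4b1 has the highest level in both groups.

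Among the lower genes, Cyp4b1 and Cyp2d22 were measured on more reads than any of the 8 higher genes. Cyp4b1, a P450 best known from lung that hydroxylates fatty acids and activates plant toxins (ENSMUSG00000028713, chromosome 4, 115624725 to 115647723), fell by 3.45 on the log2 scale with an SE of 0.26 and an adjusted p of 4.21e-37 in the authors' deposited table. This is 10.9-fold, with a 95% interval of 7.64-fold to 15.6-fold. Its mean count was 1814 in the authors' deposited table, or 804.1 normalized counts per kilobase of exon, the highest of the 13 genes. The derived means were 304.4 counts per library in WD and 3324 in ND. By p it ranked 94 among all 2386 listed genes.

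Cyp2d22, a relative of the human drug-oxidising enzyme CYP2D6 (chromosome 15, 82370527 to 82380260), stood at -2.96 ± 0.25 (SE), with an adjusted p of 1.01e-29, in the authors' deposited table. Its derived means were 54.5 counts per library in WD and 422.9 in ND. Cyp2j6, an epoxygenase gene (chromosome 4, 96516138 to 96553661), stood at -1.98 ± 0.23 (SE), with an adjusted p of 2.31e-16, in the authors' deposited table. Its derived means were 28.5 counts per library in WD and 112.7 in ND. Cyp2j9, its neighbour 14.8 kb away (chromosome 4, 96568429 to 96591578), stood at -2.64 ± 0.55 (SE), with an adjusted p of 1.66e-05, in the authors' deposited table. Its derived means were 3.51 counts per library in WD and 21.9 in ND. All 4 of these genes kept an adjusted p below 0.01. The other 7 coding genes of the Cyp2d cluster and 6 of the Cyp2j cluster were not listed.

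Cyp4a32 was the single Cyp4a gene in the lower direction, and the least certain of the 5. It stood at -4.12 ± 1.46 (SE) with an adjusted p of 0.0197 in the authors' deposited table. Its mean count of 2.17 in the authors' deposited table gives derived sums of 0.948 counts in WD and 16.4 in ND over 4 libraries each. The WD side is thus under 1 count, and the fitted fold is neither precise nor a bound. Cyp4a32 (chromosome 4, 115600969 to 115621602, plus strand) and Cyp4b1 (minus strand) lie tail to tail, with 3.12 kb between them. They are the last 2 of the 10 coding genes of the Cyp4a, Cyp4b and Cyp4x cluster, which spans 541.4 kb. The 3 higher genes of the cluster lie on its other side of Cyp4a31, which was not listed. No other gene of the annotation overlapped any of the 13.

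**Figure D3:**
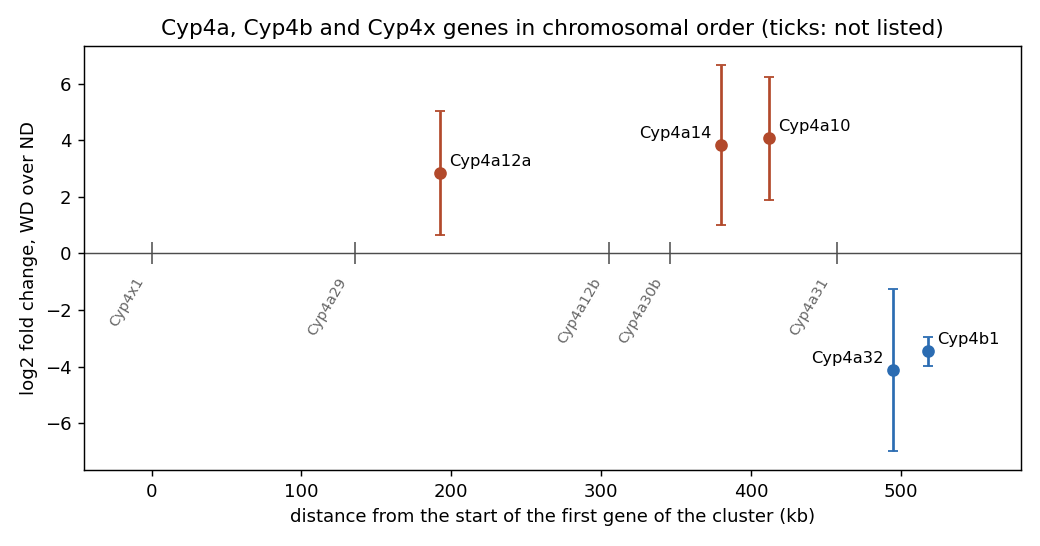
Log2 fold change of WD over ND (vertical axis, bars for the 95% interval) of the Cyp4a, Cyp4b and Cyp4x genes by distance in kilobases from the start of the first gene; ticks mark genes that were not listed. Cyp4a12a, Cyp4a14 and Cyp4a10 were higher, and Cyp4a32 and Cyp4b1 at the far end were lower.

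Close copies limit how far reads can be assigned within these clusters. Of all 50-base stretches in Cyp4a12a transcripts, 48.9% also occur in Cyp4a12b, which was not listed. For Cyp4a32, 43.8% of 50-base stretches occur in another gene and 32.6% occur in Cyp4a10. For Cyp4a10, 29.8% occur in another gene and 24.5% occur in Cyp4a32. Cyp4a10 and Cyp4a32 thus share sequence and have opposite signs. Cyp2c37 shares 30.1%, Cyp3a25 26.8% and Cyp2c50 18.3% of 50-base stretches with other genes, mainly within their own clusters. The shares were lower for Cyp4b1 (8.26%), Cyp3a11 (6.73%), Cyp2d22 (4.13%), Cyp2e1 (3.91%), Cyp2j6 (0.422%) and Cyp4a14 (0.235%). Cyp2j9 shared none. The labels state neither the read length nor the treatment of reads that match several genes. The fold changes of Cyp4a12a, Cyp4a32, Cyp4a10, Cyp2c37, Cyp3a25 and Cyp2c50 are uncertain to that extent.

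The deposited errors of Cyp2e1 and Cyp3a11 were large beside those of listed genes of like count. If only counting error were at work, the SE of Cyp2e1 would be 0.12, and the deposited SE of 0.79 was 6.36 times that. The same ratio was 6.08 for Cyp4b1 and 2.43 for Cyp2d22, both lower, and 1.10 to 1.79 for the other 7 higher genes. For a given variation between libraries, this ratio is larger at higher counts by its construction. Among 282 other listed genes with a mean count within 1.5-fold of that of Cyp2e1, the median SE was 0.26, and 1 had a larger SE. The limits on p and fold list a gene with a large SE only if its fold change is large. Listed genes may therefore hold fewer large errors than all genes of like count, here and in the comparisons below. Genes outside the list have no SE here. Expressed as a coefficient of variation between libraries of a group, the error of Cyp2e1 corresponds to 76.4%. Over the 1455 listed genes with a mean count of at least 20, the median of this measure was 21.7%, and 6 genes exceeded Cyp2e1. Cyp3a11 reached 55.8% by the same measure, and 24 of the 1455 genes exceeded it. The 8 higher genes ranged from 46.4% to 77.6% and the 5 lower genes from 0% to 35.5%, a difference that was not tested, on a measure whose median over listed genes is itself higher at low counts. The 0% is Cyp4a32, whose SE of 1.46 lay below its counting SE of 1.52 and was set to no variation, while the median was 62.5% among listed genes of like count. Against the median among listed genes of like count, all higher genes but Cyp4a10 lay above. The values were 76.4% against 20.6% for Cyp2e1, 55.8% against 28.2% for Cyp3a11 and 56.2% against 40.7% for Cyp3a25. They were 72.5% against 42.9% for Cyp2c50, 77.3% against 52.3% for Cyp2c37, 77.6% against 55.6% for Cyp4a12a and 64.8% against 61.3% for Cyp4a14. Only Cyp4a10, at 46.4%, lay below, against a median of 50.7% among the 274 listed genes with counts near its own. Cyp2j6 and Cyp2j9 also lay below the medians of genes of like count, and Cyp4b1 and Cyp2d22 lay above theirs. The values for single libraries behind it were not analysed here, and it was not tested which library or libraries carried the signal.

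**Figure D4:**
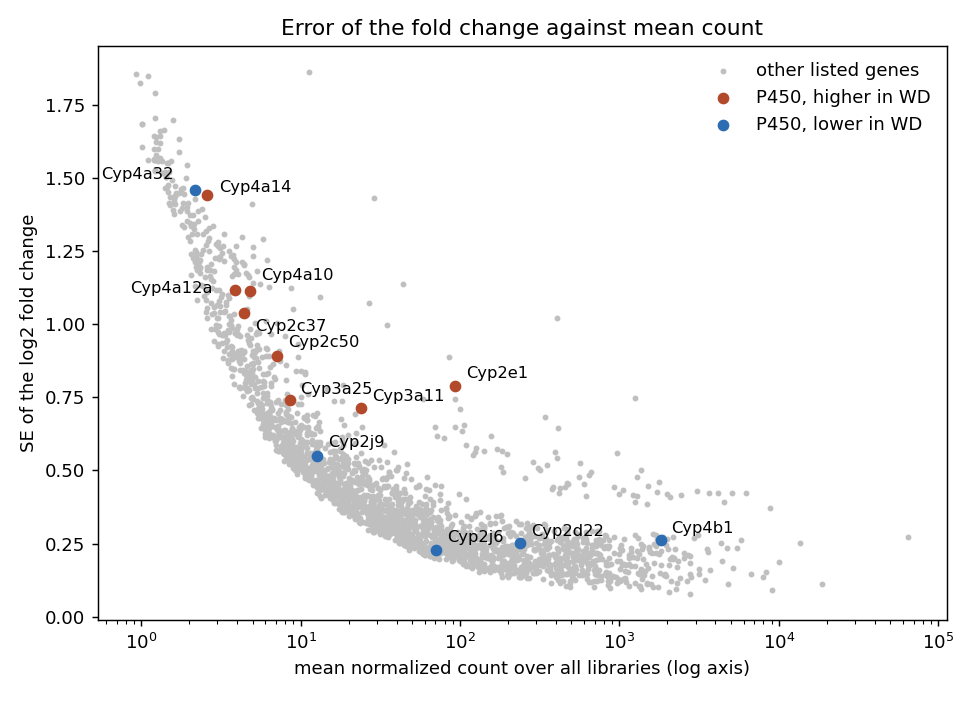
SE of the log2 fold change (vertical axis) against mean normalized count (log axis) for all listed genes (grey), with the 8 higher (red) and 5 lower (blue) P450 genes named. Cyp2e1, with an SE of 0.79 at a mean count of 93.4, and Cyp3a11, with 0.71 at 23.9, lie above the band of other genes, and Cyp2j6, Cyp2j9, Cyp2d22 and Cyp4b1 lie within it.

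Genes that work with or control these enzymes were mostly outside the table. Of 16 genes for P450 electron partners and heme handling, 1 was listed. This was Cyb5a, the cytochrome b5 gene that donates electrons to P450 enzymes, at -1.01 ± 0.14 (SE) in the authors' deposited table with an adjusted p of 1.60e-11. The P450 reductase gene Por was not listed. Of 22 receptors and transcription factors for these genes, 1 was called higher and 3 were called lower. These are 4.55% and 13.6% of the list, against 3.0% and 8.35% over all genes tested. Pparg, the adipogenic fatty acid receptor, stood at 1.45 ± 0.17 (SE), and the bile acid receptor gene Nr1h4 at -1.76 ± 0.49 (SE), in the authors' deposited table. Nr5a2, a nuclear receptor of bile acid synthesis, stood at -2.54 ± 0.29 (SE), and the retinoid receptor gene Rxrg at -2.93 ± 1.12 (SE), in the authors' deposited table. The genes of PXR (Nr1i2), CAR (Nr1i3), PPARα (Ppara) and HNF4α (Hnf4a) were not listed.

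Target genes of the same receptors were called in both directions. Of 34 PPARα targets other than Cyp4a genes, 1 was called higher, 2 were called lower and 29 were not listed. These are 2.94% and 5.88% of the list, not above the 3.0% and 8.35% over all genes tested. Acot1, an acyl-CoA thioesterase gene, stood at 1.0 ± 0.26 (SE), and Vnn1, the pantetheinase gene, at 1.94 ± 0.80 (SE) with an adjusted p of 0.0504, in the authors' deposited table. Cidec, a lipid droplet gene, was listed without an adjusted p at a mean count of 1.32 in the authors' deposited table. Pdk4, which restrains glucose oxidation, stood at -1.11 ± 0.19 (SE), and the lipase gene Mgll at -2.48 ± 0.22 (SE), in the authors' deposited table. Of 8 CAR and PXR targets other than P450 genes, 3 were called higher and 1 was called lower. These are 37.5% and 12.5%, above the shares over all genes but on a list of only 8. The drug exporter gene Abcb1a stood at 1.28 ± 0.19 (SE) and the bile canalicular exporter gene Abcc2 at 1.81 ± 0.59 (SE) in the authors' deposited table. Slco1b2, a hepatocyte uptake transporter gene, stood at 1.35 ± 0.55 (SE) with an adjusted p of 0.0479, and the exporter gene Abcc4 at -1.40 ± 0.20 (SE), in the authors' deposited table.

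Few other oxidation and conjugation enzymes were called, at shares near or below those over all genes. Of 37 genes for other oxidation steps and retinoid handling, 4 were called lower and none higher, and 31 were not listed. The flavin monooxygenase gene Fmo1 stood at -2.93 ± 0.30 (SE) and the aldehyde oxidase gene Aox1 at -2.45 ± 0.31 (SE) in the authors' deposited table. Lrat, which esterifies retinol, stood at -2.19 ± 0.42 (SE) in the authors' deposited table. Of 35 conjugation genes, 1 was called lower and none higher. Gstm2, a glutathione transferase gene, stood at -3.20 ± 0.20 (SE) in the authors' deposited table. The glucuronosyltransferase genes Ugt2b1 and Ugt2b34 were listed with positive fold changes of 1.49 ± 0.75 and 1.18 ± 0.55 (SE) and adjusted p-values of 0.127 and 0.0900 in the authors' deposited table. Over all genes tested, 3.0% were called higher and 8.35% lower, which are the shares to read these counts against.

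Markers of several other cell types were called at shares above those over all genes tested, which were 3.0% higher and 8.35% lower. Hepatocyte markers were not among them, at 5.0% called higher and 2.5% called lower, near or below those shares. Of 40 hepatocyte markers, 2 were called higher, 1 was called lower and 37, among them Alb, were not listed. Apob, the apolipoprotein of liver-made particles, stood at 1.71 ± 0.62 (SE) and the urea cycle gene Ass1 at 1.19 ± 0.16 (SE) in the authors' deposited table. Serpina1e, an antitrypsin gene, stood at -2.13 ± 0.55 (SE) in the authors' deposited table. By the measure of variation used above, Apob reached 59.7% and Serpina1e 52.9%, and Ass1 stood at 15.8%. Of 20 markers of liver sinusoidal endothelium, 19 were called lower and 1 was not listed. Their log2 fold changes ran from -4.12 to -1.49 in the authors' deposited table, a range that holds those of all 5 lower P450 genes. Cyp4a32, at -4.12 with an SE of 1.46, lies at its edge. The range also holds the median of -2.08 over all listed lower genes, so lying within it does not set the P450 genes apart. Stellate cell markers were called lower in 6 of 12 cases. Of 17 T and NK cell markers 11 were called higher, as were 2 of 9 plasma and B cell markers, and none of these was called lower. Of 10 cholangiocyte markers, Pkhd1 alone was listed, with an adjusted p of 0.112 in the authors' deposited table. None of 16 Kupffer cell markers, Adgre1, Clec4f and Csf1r included, was listed, so the table gives no level with which to check the cell type label. The summed level of a marker list per library is not in the table. The part of other cell types in the P450 changes was not tested, and fewer cells of a type and less RNA per cell cannot be told apart in bulk samples.

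**Figure D5:**
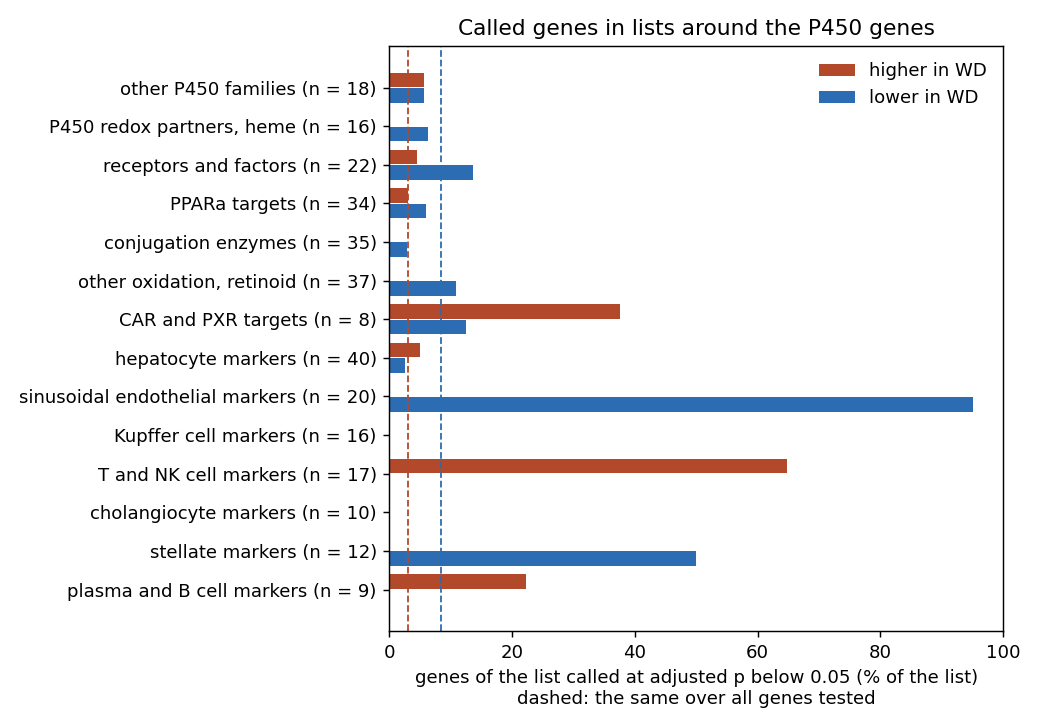
Share of each gene list (horizontal axis, % of the list) called higher (red) or lower (blue) in WD at an adjusted p below 0.05, with dashed lines at 3.0% and 8.35%, the shares over all genes tested. The hepatocyte list has 2 higher genes of 40, and the endothelial list has 19 lower genes of 20.

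The P450 genes carried several of the terms that the authors found enriched among the higher listed genes. That enrichment used the same genes and is therefore no independent evidence, and it did not cover genes with a negative fold change, so Cyp4b1, Cyp2d22, Cyp2j6, Cyp2j9 and Cyp4a32 are in none of it. At least 1 P450 gene of the 8 was in 12 of 373 Gene Ontology (GO) terms and 14 of 78 KEGG pathways of the authors' deposited table. Of these, 5 GO terms and 8 KEGG pathways had a Benjamini p below 0.05 in the authors' deposited table. Retinol metabolism held 11 genes in the authors' deposited table (Benjamini p 1.37e-05), 7 of them these P450 genes. Its 6 genes with an adjusted p below 0.05 were all P450 genes. Arachidonic acid metabolic process held 5 genes at 8.97-fold enrichment (Benjamini p 0.0428) in the authors' deposited table, and all 5 were Cyp2c or Cyp4a genes. In the authors' deposited table, arachidonic acid metabolism as a KEGG pathway held 8 genes (Benjamini p 0.00169), 6 of them these P450 genes. PPAR signaling held 6 genes (Benjamini p 0.0384) in the authors' deposited table, namely Cyp4a10, Cyp4a12a and Cyp4a14 with 3 other genes. Drug metabolism by cytochrome P450 held 4 genes (Benjamini p 0.235) in the authors' deposited table, with Cyp2e1 as its single P450.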

How the data were processed

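RNA of liver macrophages was sequenced after poly(A) selection and random-primed cDNA synthesis, per the labels' protocols. The build was mm10, and the tools included featureCounts, HISAT2 and DESeq, with no role given, per the submitters' processing notes. The authors deposited 1 table. Its signal is a mean normalized count per gene, beside a log2 fold change of WDV over NDV with its SE, a test score, p-values and adjusted p-values, per the file headers. It also gives the GO and KEGG terms the authors found enriched, with a fold enrichment ratio and p-values, per the file headers.

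Every listed gene had a p of at most 0.04995 and an absolute log2 fold change of at least 1.00011. The number of tested genes, 17531, counts only genes with an adjusted p. It is the whole number that makes most ranks implied by the adjusted p-values whole within 0.02 (91.0% of them). This step assumes Benjamini-Hochberg adjustment and was tested on simulated data. All adjusted p-values in the text are the authors', from their test across genes, and 77 listed genes have none. Intervals of 95% are normal intervals from the deposited SE.

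Group means were derived from the deposited mean and fold change with 4 libraries per group weighted equally, and assume an unshrunken fit. The coefficient of variation is the square root of a variance between libraries. That variance is the squared SE less the counting variance, on the natural log scale and scaled for 4 libraries per group. A negative binomial model with equal library sizes is assumed, and the algebra was checked on simulated data. Any sharing of variance between genes in the authors' fit remains in this measure. Shared stretches were counted on both strands of GENCODE M21 transcripts. No library could be left out, and no library value, depth or test of single libraries was possible. Genes and lists were chosen with earlier results of these data known. All P450 genes meeting the rule are named, and at most 6 listed genes per other list, by smallest p. The values of 1 gene of these lists are not reported here. Replicates are separate libraries, and whether they are separate mice is stated only by the series design. Python 3.11.15, numpy 2.4.6 and matplotlib 3.10.9 were used.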

Additional observations from a re-analysis of the deposited data

How the results depend on the processing

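The 6 higher calls depended on the limit. They became 3 at an adjusted p below 0.01, 1 (Cyp3a11) with Bonferroni correction over 17531 genes, 1 with a mean count of at least 10, and 3 with the 95% interval wholly beyond 2-fold. At the unadjusted limit there were 8. The 5 lower calls stayed within 4 to 5 under each of these settings. Without genes sharing 40% or more of their 50-base stretches, a limit chosen after seeing the data, there were 5 higher and 4 lower calls. The median log2 fold change over all 13 genes, 2.19, has little meaning because the genes moved both ways. It was -2.31 over genes with a mean count of at least 10, and the mean weighted by the inverse squared SE was -1.88, in which Cyp2j6, Cyp2d22 and Cyp4b1, with the smallest SEs, weigh most. Over the 7 lists of related enzymes, receptors and targets, 6 genes were called higher, against 10 at the unadjusted limit, 2 with Bonferroni correction and 1 with the interval beyond 2-fold. The 13 lower calls in these lists ranged from 9 to 17. A rank tolerance of 0.01, also chosen later, again gave 17531 tested genes. No paired analysis was possible because the table holds no values of single libraries and replicate numbers follow accession order. Leaving out replicates, another normalization and another count model were not run for the same reason. Low counts limit Cyp4a10, Cyp4a12a, Cyp4a14, Cyp4a32 and Cyp2c37 most, with mean counts of 2.17 to 4.80.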

Other observations

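P450 genes of other families were listed too, in both directions. Of 18 such genes, 1 was called higher, 1 was called lower and 14 were not listed. Each call is 5.56% of the list, against 3.0% called higher and 8.35% called lower over all genes tested. Cyp26b1, which degrades retinoic acid, stood at -3.83 ± 0.75 (SE) in the authors' deposited table, with an adjusted p of 3.84e-06 and a mean count of 1255. Its variation between libraries, by the measure used for the other genes, was 73.2%, close below that of Cyp2e1. Cyp11a1, the first enzyme of steroid hormone synthesis, stood at 1.30 ± 0.35 (SE) with an adjusted p of 0.00137 in the authors' deposited table. The retinoic acid hydroxylase gene Cyp26a1 and the aryl hydrocarbon receptor target Cyp1a1 were listed with negative fold changes, at adjusted p-values of 0.0793 and 0.0647 in the authors' deposited table.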
